A study of Mus musculus with 16 samples.

Results

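Megakaryocyte and platelet genes were followed across 16 RNA-seq libraries of mouse leukaemia cells that carry the CBFB::MYH11 fusion of inversion 16. The set holds 34 genes chosen by symbol, of 55487 genes in the count table, and all 34 were found. They encode surface receptors of platelets or of the thrombin receptor family, granule contents, granule and cytoskeletal machinery and enzymes that make eicosanoids.

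Megakaryocytes arise in the bone marrow from progenitors that can also give rise to red cells, and shed platelets from long extensions. Platelets catch on a damaged vessel wall through the glycoprotein Ib-IX-V complex, which binds von Willebrand factor, and are activated by thrombin through protease-activated receptors and by ADP through P2Y receptors. Activation switches the integrin made of the Itga2b and Itgb3 chains to its fibrinogen-binding state and releases the contents of the alpha and dense granules. Itga2b and some other early members are also expressed in blood progenitors that are not committed to the lineage.

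The leukaemia cells carried GFP with the fusion and, per the design text, an shRNA against MYH11 that doxycycline switches on, and they grew in congenic recipient mice. Bone marrow control (n = 3) and spleen control (n = 3) libraries came from mice given sucrose water for 7 days. Bone marrow doxycycline (n = 3) and spleen doxycycline (n = 3) libraries came from mice given doxycycline at 3 mg/ml in 5% sucrose for the same time. The 4 secondary disease libraries came from spleens of a separate cohort kept on doxycycline until fatal disease. The labels name shRNA-transduced cells only for the doxycycline and secondary disease libraries, and no group received doxycycline without the shRNA, so the agent and the knockdown cannot be told apart. The strain and age of the mice are not given here. No label states that numbered samples of a group are different mice, and a p-value therefore reflects sample-to-sample spread, which may be technical.

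Total expected counts ran from 12.26 M to 39.42 M per library, with secondary disease replicate 4 the lowest. Mouse Myh11 had 0 to 9 counts in every library, so it does not show the knockdown. The count of Cbfb pools the normal gene and any fusion reads on it. Cbfb had 127, 139 and 119 CPM (counts scaled to library size) in bone marrow control and 90.4, 90.1 and 96.9 CPM under doxycycline. In spleen it had 144, 124 and 131 CPM in the controls, 117, 54.2 and 119 CPM under doxycycline and 137, 133, 127 and 72.2 CPM in secondary disease. The part of fusion reads in these values cannot be told. CPM here are scaled between libraries by the TMM method, which sets the bulk of genes level. The spleen doxycycline libraries stood apart from each other: globin genes took 0.527, 7.15 and 3.73% of the counts of replicates 1, 2 and 3. The controls held 0.212 to 0.468% and bone marrow doxycycline 4.5 to 5.6%. Secondary disease replicate 4 held 15 monocyte and macrophage markers at a summed 182 CPM, against 17.7 to 70.9 CPM in all other libraries.

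Before any treatment the leukaemia carried some platelet genes at high level, many near 0 and a few in between. Levels of different genes are compared in deposited TPM, which divides by transcript length. The integrin chain Itga2b led the 34 genes in both control groups, at 197 ± 47.1 TPM (SD, n = 3) in bone marrow and 230 ± 31.6 TPM in spleen. Gp5, a subunit of the von Willebrand factor receptor, followed at 158 ± 45.0 and 139 ± 5.90 TPM, and Plek, the platelet protein kinase C substrate pleckstrin, at 132 ± 1.82 and 127 ± 10.1 TPM. In bone marrow control 10 members had a mean of 20 TPM or more and 18 were under 1 TPM, and in spleen control 12 and 19. In bulk RNA, fewer cells with a transcript and less transcript per cell cannot be told apart.

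The gap ran through complexes whose chains work together. Gp1ba, the chain that holds the von Willebrand factor site, stood at 60.6 ± 16.8 TPM in bone marrow control and 56.0 ± 2.32 TPM in spleen control, and its partner Gp1bb at 27.2 ± 3.07 and 11.9 ± 0.855 TPM. Gp9, the third kind of chain of that complex, had 2.27 ± 0.206 and 0.56 ± 0.200 TPM. Itgb3, the chain that Itga2b pairs with, was listed at 0.447 ± 0.147 TPM in bone marrow control and 1.58 ± 0.186 TPM in spleen control. The level of Itga2b was therefore above that of its partner in all 6 control libraries.

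Late cargo was near the floor. Pf4, the chemokine platelet factor 4 and among the most abundant transcripts of megakaryocytes, had 1.82, 0.37 and 0.74 TPM in the bone marrow controls and 0.43, 0 and 0.57 TPM in the spleen controls. Its highest expected count in any library was 6. Ppbp, the neighbouring chemokine gene, and the adhesion proteins Vwf and Selp had at most 4, 11 and 5 counts in the 15 libraries other than secondary disease replicate 4, and Mmrn1 (multimerin) and the lipoxygenase Alox12 never passed 3 counts. The collagen receptors Gp6 and Itga2, the ADP receptor P2ry12, the serotonin transporter Slc6a4 and the G protein subunit Gng11 had means of 0 to 0.28 TPM in both control groups.

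Other members sat between these ends. Tubb1, the beta tubulin of the platelet's marginal band, had 79.3 ± 19.5 TPM in bone marrow control and 69.6 ± 1.36 TPM in spleen control. Treml1, a receptor of the alpha granule membrane, had 64.0 ± 12.9 and 27.1 ± 1.36 TPM. Rab27b, a GTPase of dense granule secretion, had 43.9 ± 0.975 and 36.5 ± 3.67 TPM, and Nbeal2, which megakaryocytes need to build alpha granules, 19.6 ± 6.74 and 22 ± 2.33 TPM. The ATP-gated channel P2rx1 had 21.6 ± 4.48 and 29.3 ± 2.15 TPM, and the thromboxane synthase Tbxas1 49.5 ± 7.61 and 86.5 ± 2.71 TPM. The signalling receptors F2r and Ptgir had 8.33 ± 0.610 and 10.6 ± 2.77 TPM in bone marrow control and 33.4 ± 2.64 and 32.0 ± 1.07 TPM in spleen control. The lowest members that were still tested were the podoplanin receptor Clec1b, the thrombin cofactor receptor F2rl2, the clotting factors F5 and F10, thrombospondin Thbs1 and the cyclooxygenase Ptgs1, each under 1 TPM in both control groups, with Cd9 at 3.60 and 0.42 TPM.

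**Figure D1:**
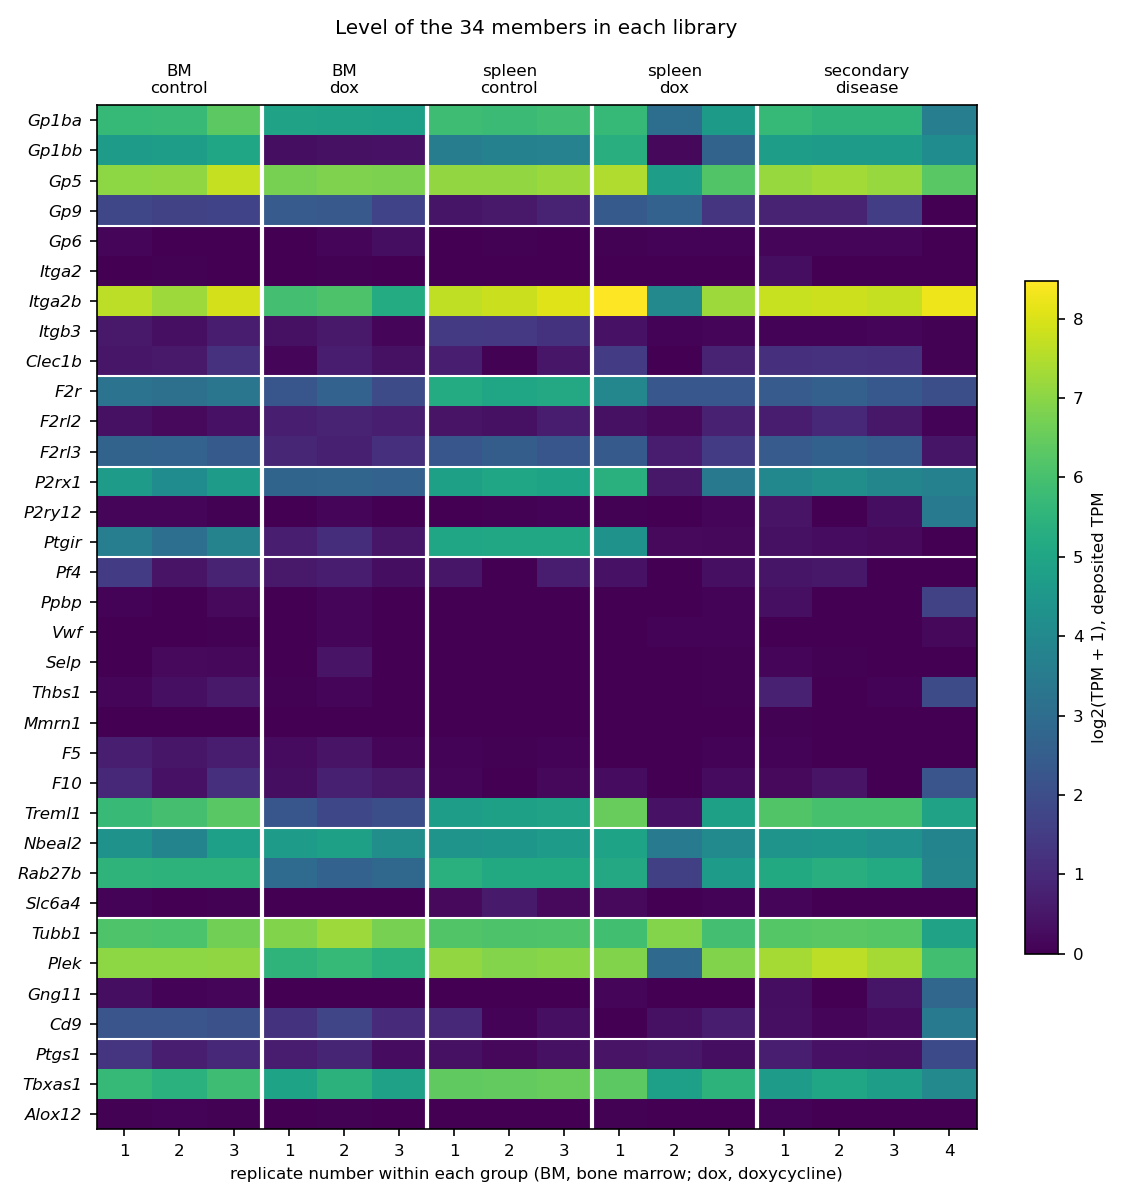
Heat map of log2(TPM + 1) of deposited TPM, with the 34 genes as rows, ordered by role and parted by white lines, and the 16 libraries as columns, parted by group. Bright rows (Itga2b, Gp5, Plek, Tubb1) lie beside dark rows (Pf4, Ppbp, Vwf, Selp, Mmrn1), and the column of spleen doxycycline replicate 2 is darker than the columns beside it for Itga2b, Plek and Treml1.

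Promoters are shown for the most abundant member, for a lineage gene that stayed near the floor, for the member with the deepest fall under doxycycline in bone marrow and for a member that fell in secondary disease, since the results turn on these genes. Each runs 250 bases before to 50 bases after the RefSeq start (GRCm38.p6), 5′ to 3′ on the gene's strand, with capitals for exact matches to 3 short motifs on either strand: AGATAA or TTATCT (the GATA core), TGTGGT or ACCACA (the RUNX core, which core binding factor reads) and GAGGAAG or CTTCCTC (an ETS core). Itga2b lies at chr11:102469834-102470133 on the minus strand, Pf4 at chr5:90772185-90772484 on the plus strand, Gp1bb at chr16:18622354-18622653 on the minus strand and F2r at chr13:95618417-95618716 on the minus strand.
Itga2b: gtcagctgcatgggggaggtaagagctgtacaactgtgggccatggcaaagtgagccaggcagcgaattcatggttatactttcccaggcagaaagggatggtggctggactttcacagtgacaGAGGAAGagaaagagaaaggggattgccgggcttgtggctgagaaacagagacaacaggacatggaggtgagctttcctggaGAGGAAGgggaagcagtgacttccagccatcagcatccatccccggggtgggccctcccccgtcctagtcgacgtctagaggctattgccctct
Pf4: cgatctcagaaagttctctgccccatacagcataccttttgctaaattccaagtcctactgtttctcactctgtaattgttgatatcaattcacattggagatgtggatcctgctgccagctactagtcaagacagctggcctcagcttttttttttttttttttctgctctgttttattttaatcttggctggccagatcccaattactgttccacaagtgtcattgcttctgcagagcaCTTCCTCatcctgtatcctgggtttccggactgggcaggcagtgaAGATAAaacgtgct
Gp1bb: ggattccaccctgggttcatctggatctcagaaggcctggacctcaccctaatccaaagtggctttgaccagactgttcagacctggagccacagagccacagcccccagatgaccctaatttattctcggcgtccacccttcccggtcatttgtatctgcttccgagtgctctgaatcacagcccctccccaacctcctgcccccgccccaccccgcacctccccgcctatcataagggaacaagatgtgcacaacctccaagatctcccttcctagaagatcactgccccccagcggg
F2r: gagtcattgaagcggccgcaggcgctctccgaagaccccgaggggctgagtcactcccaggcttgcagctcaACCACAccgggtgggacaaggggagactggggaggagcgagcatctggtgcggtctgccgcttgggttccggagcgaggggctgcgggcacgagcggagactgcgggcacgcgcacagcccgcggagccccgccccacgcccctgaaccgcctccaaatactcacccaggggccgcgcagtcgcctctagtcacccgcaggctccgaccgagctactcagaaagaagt

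With the start base counted as 0, Itga2b held the ETS motif at -126 to -120 and -44 to -38, and Pf4 held it at -9 to -3 with a GATA motif at 36 to 41. F2r held a RUNX motif at -178 to -173 on the other strand, and Gp1bb held none of the 3. The table had promoters of 29 of the 34 members. The GATA motif was in 7 of these 29, and in 11.2% of 32851 promoters of the table. The ETS motif was in 10 of 29 and in 13.6% of all, and the RUNX motif in 3 of 29 (F2r, F5 and Gp9) and in 16.8% of all. A match is a run of letters, not a bound site.

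Of the 34 genes, 23 passed the filter on low counts and were tested, and the counts that follow are over these 23. The other 11 (Gp6, Itga2, P2ry12, Pf4, Ppbp, Vwf, Selp, Mmrn1, Slc6a4, Gng11 and Alox12) were too low to test. Some of the 23 were near the floor outside 1 group or 1 library, so a median over them is a description. Fold changes are log2 values from the quasi-likelihood test of edgeR over all 16 libraries, with Benjamini-Hochberg adjustment over 14435 genes, and genes under an adjusted p of 0.05 are termed called.

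After 7 days of doxycycline in bone marrow 3 members fell while red cell genes rose. Gp1bb had 18.0, 19.1 and 19.5 CPM in the controls and 0.171, 0.221 and 0.304 CPM under doxycycline. Its values in doxycycline were all far below the lowest control, and at a log2 fold change of -6.29 ± 1.18 (SE; adjusted p = 0.0115, edgeR) it had the deepest fall of the set. Treml1 had 41.2, 50.2 and 52.8 CPM in the controls and 3.20, 2.17 and 2.96 CPM under doxycycline, and fell by 4.11 ± 1.01 (adjusted p = 0.0297, edgeR). Rab27b had 111, 112 and 94.4 CPM in the controls and 17.7, 14.1 and 19.0 CPM under doxycycline, and fell by 2.64 ± 0.63 (adjusted p = 0.0263, edgeR). For all 3 genes the groups did not overlap, and the doxycycline libraries lay close to each other.

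These 3 were the members called, all lower, among 23 tested (13%), where 6.57% of all genes tested were called either way and 2.61% lower. The median of the 23 fold changes was -0.89 and 19 were negative, beside a median of -0.02 over all genes. Without regard to the test, 12 of the 23 had every doxycycline library below every control (52.2%, against 24.7% of all genes), and 3 (Tubb1, F2rl2 and Gp9) every doxycycline library above (13%, against 23.1%). With edgeR 9 members had an unadjusted p under 0.05. The Wald test of DESeq2 called 7 and limma-voom called 0. The matching shares of all genes are not given for these counts, so they do not show whether the members exceeded the background.

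The number called moved with the libraries that were fitted together. When only the 6 bone marrow libraries of the comparison were fitted, edgeR called 13 members, 10 lower and 3 higher, of 4929 genes in all, and without spleen doxycycline replicate 2 it called 9, with 8 lower. Called at both of these were Itga2b, P2rx1, Plek, F2rl3 and Ptgir as lower and Tubb1 as higher. Leaving out single bone marrow libraries gave 0 or 1 calls, and leaving out single other libraries 2 to 9. Over all genes the fits that left out a library called 23 to 2428, against 949 with all libraries.

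The remaining surface receptors had these values in bone marrow. Itga2b had 359, 281 and 358 CPM in the controls and 89.2, 106 and 74.7 CPM under doxycycline, with no overlap and a fold change of -1.88 ± 0.70 that did not pass (adjusted p = 0.123, edgeR). P2rx1 had 40.8, 29.6 and 36.2 CPM against 9.51, 10.5 and 11.6 CPM (-1.75 ± 0.83). Gp1ba, the ligand-binding partner of Gp1bb, had 97.0, 99.7 and 129 CPM against 57.8, 59.1 and 59.6 CPM (-0.89 ± 0.48). Gp5 stayed close to its control level, at 208, 216 and 286 CPM against 179, 200 and 210 CPM (-0.27 ± 0.41), and its groups overlapped. Of the chains of this receptor complex only Gp1bb passed, and whether the chains differ from each other was not tested.

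Of the receptors of thrombin and prostacyclin, F2rl3, F2r and Ptgir had negative fold changes and F2rl2 a positive one, and none passed. F2rl3 (PAR4, the main thrombin receptor that signals in mouse platelets) had 6.81, 6.72 and 4.52 CPM in the controls and 1.15, 0.921 and 1.78 CPM under doxycycline (-2.23 ± 0.71, adjusted p = 0.0768, edgeR), and it passed when secondary disease replicate 4 was left out (adjusted p = 0.0103). F2r (PAR1) had 21.1, 19.9 and 19.3 CPM against 10.2, 14.9 and 8.57 CPM (-0.84 ± 0.35). Ptgir, the prostacyclin receptor that damps platelet activation, had 26.8, 18.4 and 26.2 CPM against 1.45, 2.98 and 1.15 CPM (-3.67 ± 1.28, adjusted p = 0.103, edgeR). Every doxycycline library was below every control for these 3 receptors. F2rl2 (PAR3, which presents thrombin to PAR4 in mouse platelets) had 0.571, 0.322 and 0.511 CPM in the controls and 1.24, 1.58 and 1.42 CPM under doxycycline, with every doxycycline library above every control (1.59 ± 0.69, adjusted p = 0.195, edgeR).

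Tubb1, Nbeal2, Plek, Tbxas1 and Gp9 did not pass in bone marrow, with fold changes of either sign. Tubb1 had 65.0, 64.0 and 82.0 CPM in the controls and 115, 156 and 118 CPM under doxycycline (0.88 ± 0.30, adjusted p = 0.0924, edgeR), with no overlap, and it passed without secondary disease replicate 4 (adjusted p = 0.0260). Nbeal2 had 70.1, 51.4 and 82.7 CPM against 94.2, 118 and 81.2 CPM (0.52 ± 0.28), and the groups overlapped. Plek had 414, 420 and 361 CPM against 149, 174 and 154 CPM (-1.33 ± 0.64), with no overlap. Tbxas1 had 89.0, 71.6 and 88.7 CPM against 61.0, 87.6 and 56.0 CPM (-0.29 ± 0.34), with overlap. Gp9, the low chain of the von Willebrand factor receptor, had 1.27, 1.07 and 0.98 CPM against 2.35, 2.36 and 1.34 CPM (0.86 ± 0.74).

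The other genes of the pathway, from lists drawn up for this work, gave the following counts in bone marrow. Of 22 megakaryocyte regulators tested, 5 were called higher and 1 lower: Nfe2, which drives platelet shedding, rose by 1.14 ± 0.19, Mafg, its small Maf partner, by 1.29 ± 0.25 and Lyl1 by 0.89 ± 0.17 (adjusted p = 0.00667, 0.0128 and 0.0123, edgeR). Gata1 and Gata2 were the other two that rose, and the repressor Etv6 fell by 1.72 ± 0.35; these 3 were named after their values were seen. Fli1, an ETS factor of megakaryocytes, had 124, 139 and 128 CPM in the controls and 31.3, 34.5 and 33.4 CPM under doxycycline; it was not called and was also named after its values were seen.

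Of 35 platelet signalling genes tested, 5 were called lower and 0 higher, and 32 had a negative fold change (median -0.61). Rasgrp2, the exchange factor that switches on the integrin through Rap1, fell by 4.54 ± 0.98, the G protein Gnaq by 2.23 ± 0.50 and the prostaglandin E2 receptor Ptger3 by 1.31 ± 0.33 (adjusted p = 0.0188, 0.0209 and 0.0330, edgeR), with P2ry1 and Fcer1g the others. Granule machinery had 1 of 22 called, Dtnbp1, lower by log2 -1.70 ± 0.46. Other alpha granule cargo had 1 of 15 called lower, Pdgfb, by log2 -3.07 ± 0.81, and the proplatelet cytoskeleton had 1 of 19, Zyx (zyxin), lower by log2 -3.03 ± 0.77. Of all genes tested 2.61% were called lower. Over 16 fits that left out a library, the call held in 10 for Rasgrp2 and Gnaq, 7 for Zyx, 6 for Ptger3, 5 for Pdgfb and 3 for Dtnbp1, while Nfe2 held in 15 and Lyl1 and Mafg in 13.

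Red cell genes made the contrast. Of 37 erythroid genes, 23 were called higher and 0 lower in the same bone marrow comparison, with a median of 1.98, and 3.96% of all genes were called higher. Hba-a2, an alpha globin, rose by 4.32 ± 0.70, Hba-a1 by 3.22 ± 0.50 and Bpgm, the red cell bisphosphoglycerate mutase, by 2.32 ± 0.38 (adjusted p = 0.00566, 0.00552 and 0.00643, edgeR). The summed level of the 37 genes was 9790 to 12200 CPM in the 3 bone marrow controls and 64300 to 77500 CPM under doxycycline. The summed level of the 34 platelet genes was 1471 to 1654 CPM in the controls and 797 to 963 CPM under doxycycline. All 3 bone marrow doxycycline libraries were thus above the controls in the first sum and below them in the second. Abundant members weigh most in the platelet sum. Itga2b went from a mean of 332.4 to 90.02 CPM and Plek from 398.5 to 158.9 CPM, and neither was called. Tubb1 (70.32 to 129.6 CPM) and Nbeal2 (68.09 to 97.69 CPM) went the other way.

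**Figure D2:**
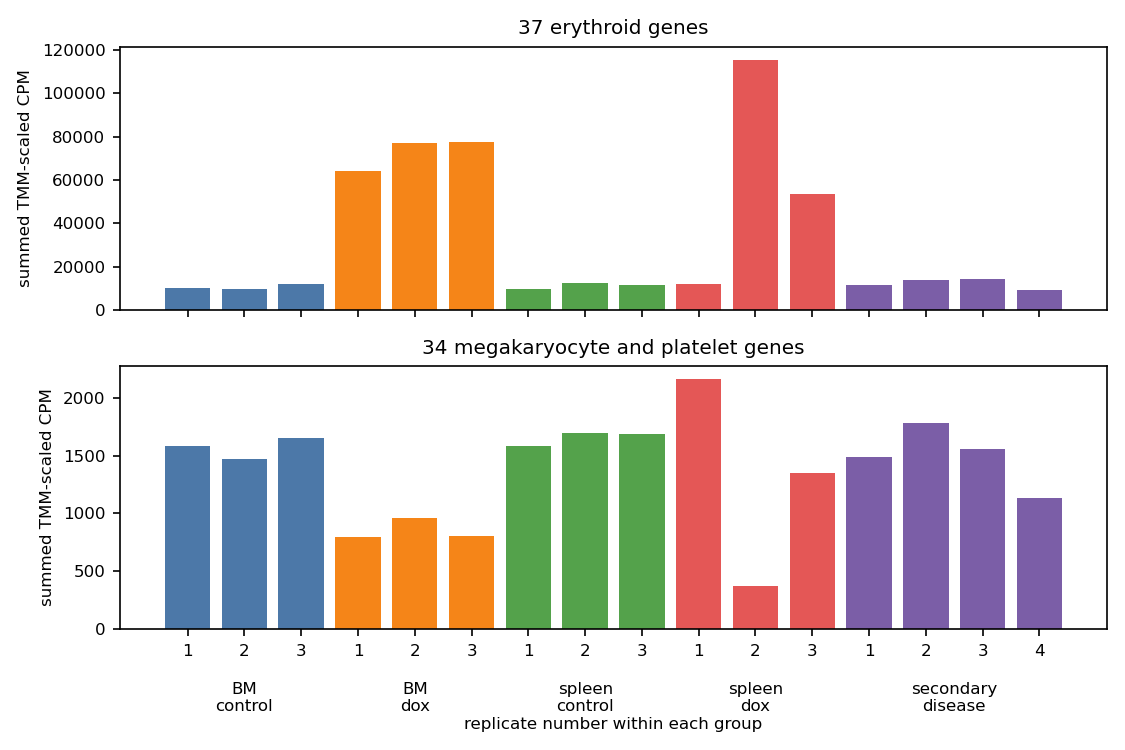
Summed TMM-scaled CPM of 37 erythroid genes (top) and of the 34 megakaryocyte and platelet genes (bottom) in each of the 16 libraries, as bars from 0, coloured by group. The 3 bone marrow doxycycline libraries are high above and low below, at 64300 to 77500 CPM and 797 to 963 CPM, and spleen doxycycline replicate 2 has the highest erythroid and the lowest platelet sum, while replicate 1 has an erythroid sum within the range of the controls and the highest platelet sum, 2166 CPM.

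In the spleen the doxycycline libraries disagreed with each other in platelet genes. Itga2b had 324, 387 and 400 CPM in the spleen controls and 681, 20.6 and 292 CPM in doxycycline replicates 1, 2 and 3. Treml1 had 17.2, 20.9 and 20.9 CPM in the controls and 76.2, 0.319 and 26.9 CPM under doxycycline, and Gp1bb 7.01, 8.67 and 8.29 CPM against 30.8, 0.152 and 4.95 CPM. Replicate 1 was thus above all controls for these 3 genes and replicate 2 below all controls. Rab27b had 92.3, 82.4 and 78.5 CPM in the controls and 88.1, 5.86 and 76.0 CPM under doxycycline, P2rx1 42.1, 54.3 and 46.7 CPM against 76.3, 0.758 and 20.7 CPM, and Plek 389, 368 and 363 CPM against 392, 24.8 and 466 CPM.

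The same libraries differed in erythroid genes in the reverse order. The summed erythroid level was 11970, 115500 and 53510 CPM in doxycycline replicates 1, 2 and 3, beside 9620 to 12300 CPM in the spleen controls, and the 34 platelet genes summed to 2166, 376 and 1346 CPM, beside 1585 to 1696 CPM. Tubb1 followed the erythroid side, at 59.1, 136 and 71.4 CPM under doxycycline and 59.3, 63.7 and 60.4 CPM in the controls. With 3 libraries a relation across them was not tested.

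**Figure D3:**
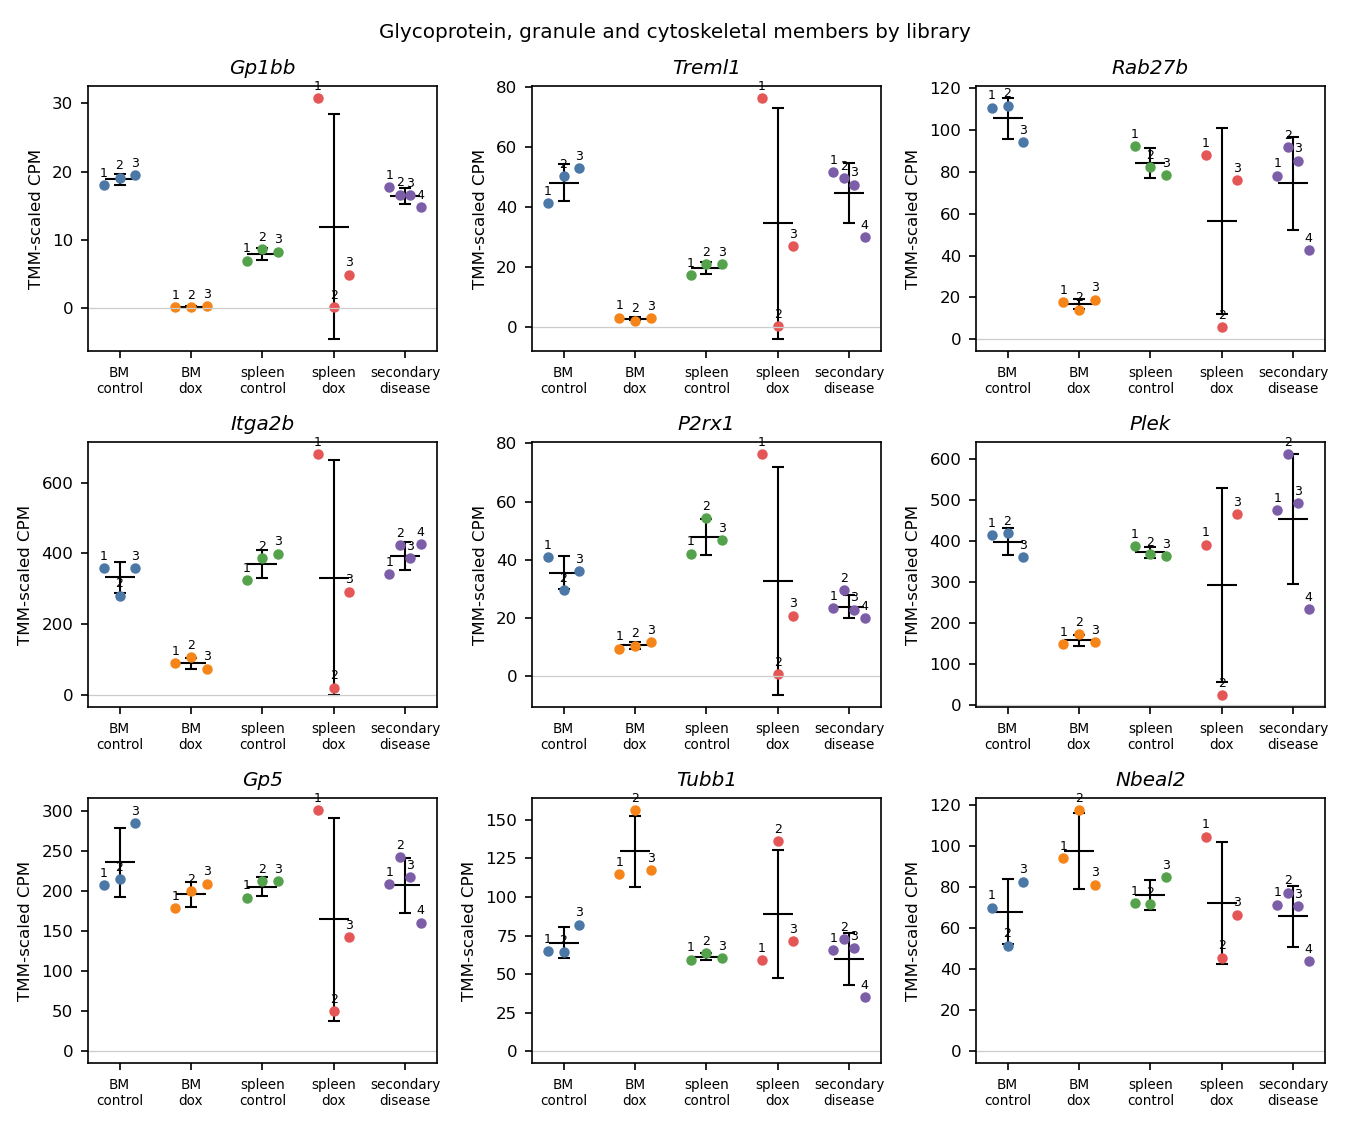
TMM-scaled CPM of 9 members in each library (points, numbered by replicate), with the group mean as a dash and the SD as a bar, on linear axes that include 0. Bone marrow doxycycline is low and tight for Gp1bb, Treml1 and Rab27b, while the spleen doxycycline points span the plot, with replicate 2 lowest for every gene but Tubb1.

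Against this spread 2 members were called in spleen, both lower, of 23 tested (8.7%), where 0.741% of all genes were called either way and 0.173% lower. Itgb3, the integrin chain of the fibrinogen receptor, had 7.04, 7.30 and 5.70 CPM in the controls and 1.61, 0.279 and 0.589 CPM under doxycycline, and fell by 3.00 ± 0.64 (adjusted p = 0.0491, edgeR). F2r had 81.3, 76.8 and 77.7 CPM in the controls and 38.3, 12.2 and 12.6 CPM under doxycycline, and fell by 1.90 ± 0.36 (adjusted p = 0.0425, edgeR). For both genes all 3 doxycycline libraries were below all controls, replicate 1 included. The median of the 23 was -0.16, beside 0.02 over all genes.

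Both calls were close to the threshold: they held in 2 of 16 fits that left out a library (without spleen doxycycline replicate 1 and without secondary disease replicate 4), and in none of those that left out a spleen control. Ptgir had 64.5, 76.7 and 70.0 CPM in the controls and 46.8, 0.479 and 0.362 CPM under doxycycline, also without overlap, and did not pass (-2.14 ± 1.17, adjusted p = 0.510, edgeR); without spleen doxycycline replicate 1 it passed (-7.37, adjusted p = 4.9e-05). Members with groups that did not overlap were 3 lower (13%, against 10.7% of all genes) and 1 higher (4.35%, against 9.33%). The higher one was Gp9, at 0.176, 0.258 and 0.368 CPM in the controls and 2.34, 3.31 and 0.906 CPM under doxycycline (2.99 ± 0.81, adjusted p = 0.103, edgeR), and it passed without secondary disease replicate 4 (adjusted p = 0.0141).

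Among the pathway lists in spleen, 1 of 22 regulators was called, Gfi1b, a repressor shared by the red cell and megakaryocyte lineages, which rose by 0.67 ± 0.14 (adjusted p = 0.0451, edgeR). Itpr1, a calcium release channel, was the 1 of 35 signalling genes, lower by log2 -1.10 ± 0.22, Vegfa the 1 of 15 cargo genes, lower by log2 -0.93 ± 0.17, and the alpha tubulin Tuba4a the 1 of 19 cytoskeletal genes, higher by 0.91 ± 0.18. Of 37 erythroid genes 10 were called higher and 0 lower (median 1.81), where 0.568% of all genes were called higher. They included Hba-a2 at 3.52 ± 0.67, Uros, an enzyme of haem synthesis, at 2.68 ± 0.50, and Bpgm at 2.21 ± 0.38. These erythroid calls moved with single libraries too: over 16 fits that left out a library Hba-a2 and Uros held in 2 and Bpgm in 3, Uros ran from 1.64 to 3.15, and all 3 were lost with only the groups compared. The calls of Gfi1b and Tuba4a held in 2 of these fits and those of Itpr1 and Vegfa in 3.

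The difference between the tissues was itself tested as the spleen effect minus the bone marrow effect. No member was called with edgeR, where 0.0485% of all genes were (0.0277% higher and 0.0208% lower). With edgeR 5 members had an unadjusted p under 0.05, the Wald test of DESeq2 called 2 and limma-voom 0. Shares of all genes are not given for these last counts. Gp1bb had the smallest p, at 6.88 ± 1.45 (adjusted p = 0.104, edgeR), followed by Treml1 at 4.92 ± 1.32 (adjusted p = 0.225). Itgb3 and F2r had the opposite sign, at -2.55 ± 0.86 and -1.06 ± 0.49 (adjusted p = 0.404 and 0.648, edgeR). Fits that left out a library called 0 to 645 genes in all, against 7 with all libraries, so member counts in them are not to be read against the 0.0485%. Without spleen doxycycline replicate 2, edgeR called 5 members with a spleen effect above the bone marrow effect. These differences were 7.45 for Gp1bb, 5.5 for Treml1, 2.60 for Rab27b, 2.28 for Itga2b and 1.53 for Plek. They do not mean a fall in spleen, since Gp1bb and Treml1 had positive spleen fold changes in that fit. Without replicate 1, edgeR called F2r as more lowered in spleen (-1.82, adjusted p = 0.0150). The result thus turned on which of these libraries was kept.

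**Figure D4:**
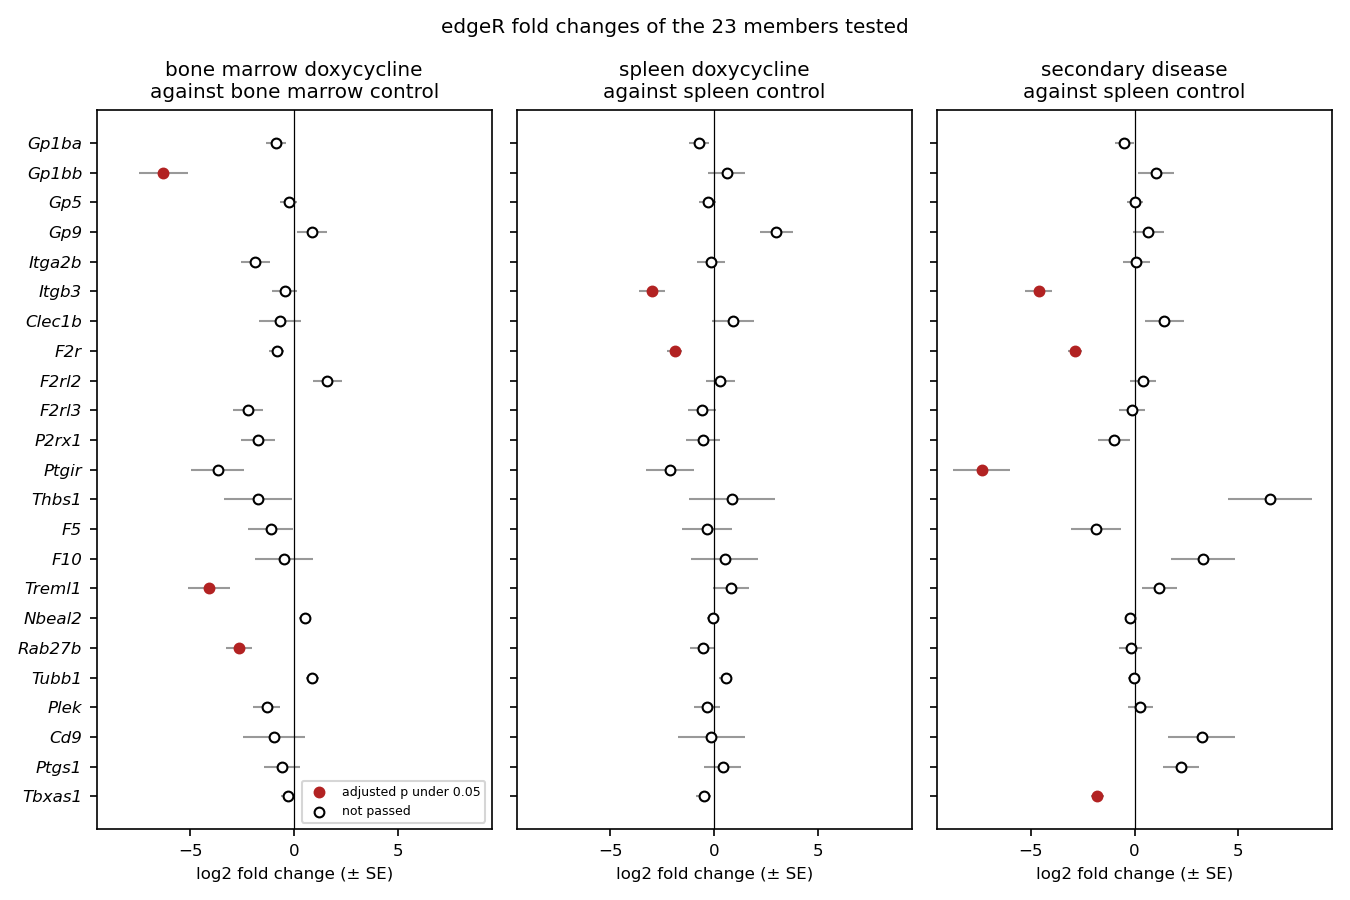
Log2 fold change with its standard error for each of the 23 members tested, in bone marrow doxycycline, spleen doxycycline and secondary disease, each against the control of its own tissue; filled points passed an adjusted p of 0.05 and open points did not. The called members are Gp1bb, Treml1 and Rab27b in bone marrow, Itgb3 and F2r in spleen, and these 2 with Ptgir and Tbxas1 in secondary disease.

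Between the untreated tissues F2r was higher in spleen. F2r had 21.1, 19.9 and 19.3 CPM in the bone marrow controls and 81.3, 76.8 and 77.7 CPM in the spleen controls, a log2 difference of 1.97 ± 0.36 (adjusted p = 0.0438, edgeR). It was the 1 member called, where 0.187% of all genes were (0.0762% higher and 0.111% lower), and the call held in 4 of 16 fits that left out a library. When only the 6 control libraries were fitted, edgeR called 13 members, 5 higher in spleen and 8 lower. That number is not to be read against the 0.187%: over the alternative settings 0 to 1927 genes were called in all, against 27 with all libraries.

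Members with groups that did not overlap were 5 higher in spleen (21.7%, against 16.3% of all genes), which were F2r, Itgb3, Ptgir, Tbxas1 and P2rx1. Ptgir had 26.8, 18.4 and 26.2 CPM in bone marrow and 64.5, 76.7 and 70.0 CPM in spleen (1.56 ± 1.15), and Itgb3 2.28, 1.29 and 2.17 CPM against 7.04, 7.30 and 5.70 CPM (1.80 ± 0.61); neither passed. Another 10 were lower in spleen (43.5%, against 16.5%), among them Treml1 (-1.29 ± 0.89), Gp1bb (-1.24 ± 0.90) and the clotting factor F5, at 3.75, 2.50 and 2.94 CPM in bone marrow and 0.352, 0.172 and 0.246 CPM in spleen (-3.56 ± 1.21, adjusted p = 0.377, edgeR). Mature neutrophil markers moved with tissue too, with a summed 890 to 1330 CPM in bone marrow control and 54.5 to 171 CPM in spleen control over 11 genes; their part in these differences was not tested.

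In secondary disease 3 receptors and 1 enzyme fell against spleen control, and the other members tested did not pass. F2r had 81.3, 76.8 and 77.7 CPM in the spleen controls and 10.4, 12.4, 9.80 and 10.1 CPM in the 4 secondary disease libraries. It fell by 2.88 ± 0.33 (adjusted p = 0.000797, edgeR), and the 4 libraries lay close together, far below the controls. Itgb3 had 7.04, 7.30 and 5.70 CPM in the controls and 0.207, 0.313, 0.351 and 0.173 CPM in secondary disease, and fell by 4.62 ± 0.63 (adjusted p = 0.00201, edgeR). The secondary disease values of Itgb3 were near the level that 3 counts give (0.117 to 0.26 CPM in these libraries).

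Ptgir had 64.5, 76.7 and 70.0 CPM in the spleen controls and 0.704, 0.547, 0.312 and 0 CPM in secondary disease, where the 0 of replicate 4 allows up to 0.26 CPM. It fell by 7.35 ± 1.37 (adjusted p = 0.0146, edgeR). Tbxas1, which turns the prostaglandin H2 made by cyclooxygenase into thromboxane A2, had 134, 155 and 150 CPM in the controls and 44.8, 56.8, 45.4 and 22 CPM in secondary disease, and fell by 1.79 ± 0.32 (adjusted p = 0.0118, edgeR). For none of the 4 genes did the groups overlap, and each also passed without secondary disease replicate 4.

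These 4 were the members called, all lower, of 23 tested (17.4%), where 2.03% of all genes were called either way, 1.28% lower and 0.748% higher. The median of the 23 was 0.01, beside 0.02 over all genes. F2r and Itgb3 were called in all 16 fits that left out a library and under all 7 other settings. Ptgir was lost without spleen control replicate 2 or 3, without secondary disease replicate 3 and with no filter, and Tbxas1 without spleen control replicate 2 or 3. Members with groups that did not overlap were 6 lower (26.1%, against 12.4% of all genes), the 4 called with P2rx1 and Gp1ba, and 2 higher (8.7%, against 8.88%).

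Itga2b, Gp5, Gp1bb, Treml1 and P2rx1 were not called. Itga2b had 341, 423, 387 and 426 CPM in secondary disease beside 324, 387 and 400 CPM in the spleen controls (0.09 ± 0.63), and Gp5 209, 243, 218 and 161 CPM beside 192, 213 and 213 CPM (0.01 ± 0.38). Gp1bb had 17.7, 16.6, 16.6 and 14.8 CPM beside 7.01, 8.67 and 8.29 CPM (1.04 ± 0.85, adjusted p = 0.653, edgeR) and Treml1 51.5, 49.5, 47.4 and 30.0 CPM beside 17.2, 20.9 and 20.9 CPM (1.18 ± 0.84, adjusted p = 0.586). All 4 secondary disease libraries were above all spleen controls for Gp1bb and Treml1, and within the range of the bone marrow controls or below it. P2rx1 had 23.4, 29.7, 22.8 and 19.9 CPM beside 42.1, 54.3 and 46.7 CPM (-0.99 ± 0.75). With only the groups compared, edgeR called 7 members, the 4 above with P2rx1 lower and Gp1bb and Treml1 higher. Over all genes the alternative settings called 61 to 756, against 293 with all libraries.

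**Figure D5:**
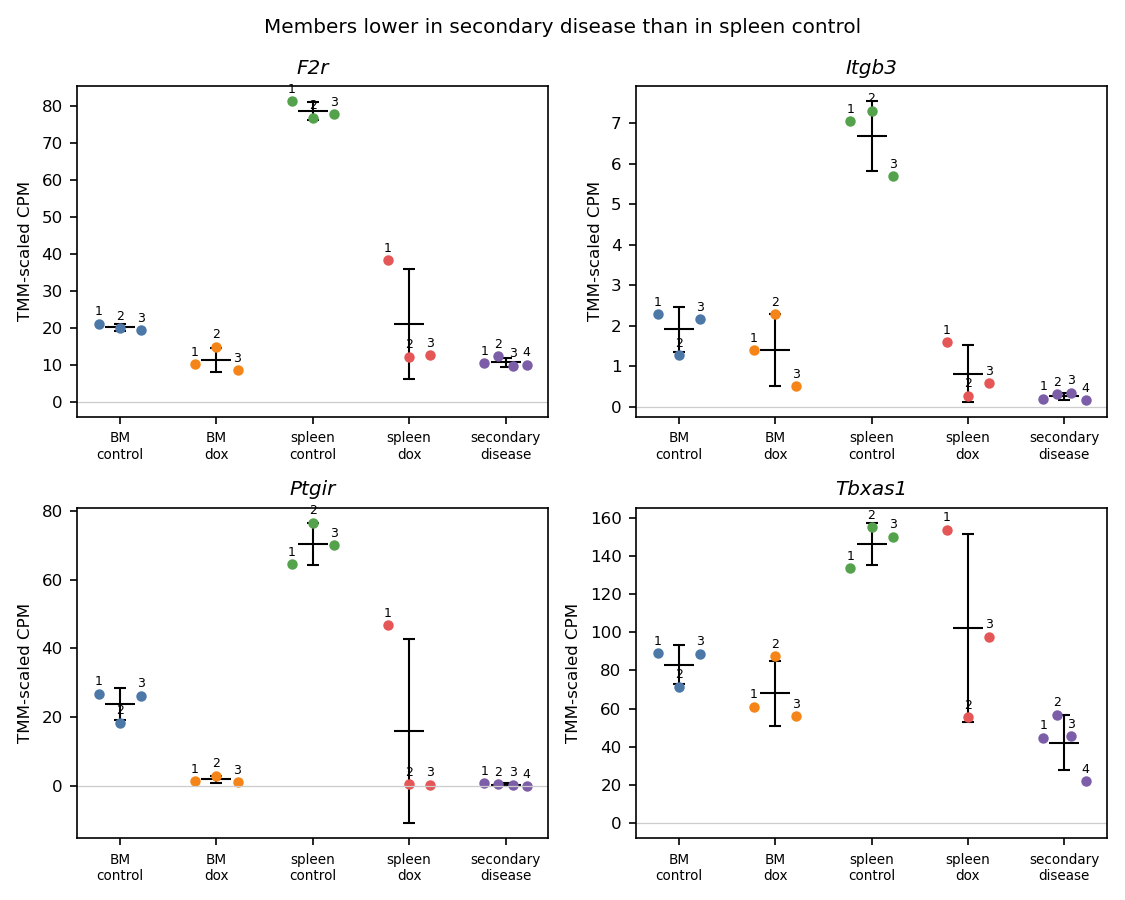
TMM-scaled CPM of F2r, Itgb3, Ptgir and Tbxas1 in each library (points, numbered by replicate), with the group mean as a dash and the SD as a bar, on linear axes that include 0. The 4 secondary disease points lie below all spleen controls in each plot, at 9.80 to 12.4 CPM for F2r against 76.8 to 81.3 CPM, and spleen doxycycline replicate 1 keeps the highest value of its group.

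Of the pathway lists in secondary disease, 1 of 22 regulators was called against spleen control, Gfi1b, higher by 0.68 ± 0.13 (adjusted p = 0.0151, edgeR). Clu (clusterin, an alpha granule protein that many other cells make) was higher by 6.21 ± 1.04, at 44.5, 29.7, 28.7 and 249 CPM in secondary disease and 0.988 to 1.42 CPM in the controls, and Vegfa was lower by log2 -0.85 ± 0.16. These were the 2 of 15 cargo genes called. Erythroid genes had a median of 0.15 against spleen control, and their summed level was 9220 to 14300 CPM in secondary disease and 9620 to 12300 CPM in the controls.

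Set against 7 days of doxycycline in spleen, secondary disease had 0 members called with edgeR, where 0.928% of all genes were. With edgeR 7 members had an unadjusted p under 0.05, DESeq2 called 4 and limma-voom 0, counts for which the shares of all genes are not given. No member had all secondary disease libraries above all spleen doxycycline libraries (3.09% of all genes), and 1, Gp9, had them all below (4.35%, against 4.14% of all genes). Ptgir differed by -5.20 ± 1.29 (adjusted p = 0.0681, edgeR), Tbxas1 by -1.27 ± 0.32 (adjusted p = 0.0706), F2r by -0.98 ± 0.32 (adjusted p = 0.147) and Itgb3 by -1.62 ± 0.59 (adjusted p = 0.179). Spleen doxycycline replicates 2 and 3, which had a high globin share, were close to secondary disease in F2r and Ptgir: 12.2 and 12.6 CPM for F2r and 0.479 and 0.362 CPM for Ptgir. Without secondary disease replicate 4, Tbxas1 (-1.06) and Gp9 (-1.97) passed, at adjusted p = 0.0489 and 0.0396 with edgeR.

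Erythroid genes went down in that comparison, with 11 of 37 called lower and a median of -1.82, where 0.707% of all genes were called lower. Rhd, Trim10 and Hba-a1 were lower by log2 -3.46 ± 0.63, -2.43 ± 0.45 and -2.28 ± 0.43 (adjusted p = 0.0265, 0.0282 and 0.0305, edgeR), calls that were lost in 7 or more of 16 fits that left out a library. Signalling and cargo lists had 1 called each, both higher: Itpr1 at 1.45 ± 0.21 and Clu at 5.14 ± 0.98. This comparison and the 7-day spleen comparison share the spleen doxycycline libraries, and the 7-day and secondary disease comparisons share the spleen controls.

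Secondary disease replicate 4 held members that no other library had at such a level. P2ry12 had 15.8 CPM there and at most 0.497 CPM in the other 15 libraries, Gng11 4.34 CPM and at most 0.195 CPM, and Ppbp 2.00 CPM and at most 0.166 CPM. Thbs1 (thrombospondin) had 16.2 CPM there and at most 1.41 CPM elsewhere, and the tetraspanin Cd9 11.1 CPM and at most 3.00 CPM. Some markers of monocytes and macrophages were high in the same library, with Csf1r at 55.6 CPM (at most 11.2 CPM elsewhere), C1qa at 30.3 CPM (at most 6.09 CPM) and Cx3cr1 at 19.8 CPM (at most 0.554 CPM). C1qa and Cx3cr1 were picked with their values in view, and Ccr2, with Csf1r the most abundant of that list, is not given. Genes of other lists were high there too, such as App at 643 CPM (at most 11.0 CPM elsewhere) and Sparc at 217 CPM (at most 1.11 CPM). The part of any of these genes, or of other cells, in the members' levels was not tested. Pf4 had 0 counts in this library.

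Other cell types that express members were looked for by marker lists. Of 19 endothelial markers, Cdh5, Sox17, Sox18, Emcn and Cldn5 were at 0 to 0.128 CPM outside secondary disease replicate 4 and at 0 to 0.954 CPM in it. On the same list Egfl7, Tek and the receptor Kdr ran to 272, 127 and 93.7 CPM. The low markers and Kdr were picked with their values in view, and whether endothelial cells were present was not tested. Kdr had 49.2, 58.4 and 93.7 CPM in bone marrow control and 39.6, 48.0 and 37.8 CPM under doxycycline, and it did not pass. Tek and Plvap were the 2 of 8 endothelial markers tested that fell in bone marrow (-4.04 ± 0.95 and -3.17 ± 0.53, adjusted p = 0.0250 and 0.00667, edgeR), and the summed level of the list was 348 to 434 CPM in bone marrow control and 159 to 178 CPM under doxycycline. Its part in the members' values was not tested. Mast cell and basophil markers summed to 2710 to 2730 CPM in bone marrow control and 2050 to 2150 CPM under doxycycline over 12 genes, with Il1rl1 and Ms4a2 the most abundant, Tpsb2 at 0 in every library and Mcpt4 and Mcpt8 at or under 0.7 CPM. In spleen doxycycline that sum was 2610, 486 and 3513 CPM in replicates 1, 2 and 3, and its part in the members' values was not tested.

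Reads of some members could be shared with neighbours. Gp1bb (chromosome 16, 18620317 to 18622403, minus strand, GRCm38) overlaps Sept5 and Gm49601 on the same strand, and Tbxas1 (chromosome 6, 38875404 to 39084585, plus strand) overlaps Hipk2 on the other strand. Sept5 had 70.5 to 116 counts in bone marrow control, 21 to 50 under doxycycline and 1668.8 in secondary disease replicate 4, so the Gp1bb value of that library is uncertain. Hipk2 had 1272 to 9592 counts. No source used here says whether counting used strand, and reads of the pair cannot be told apart.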

How the data were processed

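RNA of GFP-sorted leukaemia cells was sequenced after oligo-dT enrichment with the NEBNext Ultra II kit, per the labels' protocols. The authors deposited a table of expected counts, which are estimated and may be fractional, with 55487 genes and 16 columns, and TPM per gene in a file for each library. STAR, RSEM, Trim Galore, MultiQC and FastQC are listed in the submitters' processing notes with no version, beside the build GRCm38. Columns were matched to libraries by name, and 0 columns were left over. Each of 16 TPM files correlated best with its own column over genes after centring each gene (lowest r = 0.885), and all replicate pairs differed by more than sampling noise (lowest chi-square per degree of freedom 7.47).

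Rounded expected counts went into edgeR 4.0.16 (R 4.3.3) for its quasi-likelihood test (robust glmQLFit, filterByExpr, TMM), with all 16 libraries in 1 model with a mean per group. P-values are two-sided, with Benjamini-Hochberg adjustment over 14435 genes. Standard errors are the fold change over the square root of F. CPM are from the unrounded counts. The comparisons numbered 6. Alternatives were DESeq2 1.42.0 size factors and its Wald test, limma 3.58.1 voom, a filter at a mean count of 50, no filter, the replicate block, only the groups compared, and each library left out. A count of 0 was taken to allow up to 3 counts, which covers counting error only.

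The members and all gene lists were chosen with earlier results of these data known. All 34 members are named. Values per library were planned for called members, and mention for those that reached a mean of 20 TPM in a group or never passed 3 counts. Values of other members, such as F2rl3, F2rl2, Gp9, F5, Cd9 and P2ry12, were picked with the values in view. The rule for other lists was up to 3 genes with the smallest p, and for marker lists the 2 most abundant with those at 0 throughout. Genes outside these rules were picked with their values in view. Among them are Kdr, Plvap, C1qa, Cx3cr1, P2ry1, Fcer1g, Mcpt4 and Mcpt8. Of 38 listed erythroid genes, 37 matched. Positions are from GENCODE M21, 1-based, and promoters from RefSeq (GRCm38.p6). The steps were tested on simulated counts. Some results on genes outside the set are not reported here.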

Additional observations from a re-analysis of the deposited data

Results flagged for a closer look

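In the group of 4 secondary disease libraries, 6 of 23 members tested had a library far from the others by Dixon's ratio, where chance flags about 1 in 20 groups. That is 26.1% of the members, below the 31% of all 14435 genes tested that met the same criterion, 29.7% through replicate 4, so the members do not stand out in this. Replicate 4, the shallowest library, was the one that stood apart for 5 of them. It had Gp1ba, the von Willebrand factor binding chain, at 29.1 CPM, with the others at 82.2 to 89.1 CPM. It had Thbs1 at 16.2 CPM (others 0 to 1.41 CPM), Cd9 at 11.1 CPM (0.0782 to 0.207 CPM), the cyclooxygenase Ptgs1 at 6.68 CPM (0.547 to 1.24 CPM) and the clotting factor F10 at 4.6 CPM (0.039 to 0.234 CPM). F5 was at 0.248 CPM in replicate 1, from 6 counts, and at 0 in the other 3 libraries, where any count in a single library meets the criterion.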

How the results depend on the processing

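The 4 falls in secondary disease against spleen control were the steadiest calls of the set: 4 members with DESeq2 size factors, a mean count filter, limma-voom and the replicate block, 3 with no filter, 5 with the DESeq2 Wald test and 7 with only the groups compared. The other counts moved with the setting. In bone marrow doxycycline the 3 called became 7 with the DESeq2 Wald test, 0 with limma-voom, 1 with no filter, 13 with only the groups compared and 5 with the replicate block. In spleen doxycycline the 2 called became 0 with no filter and 0 with only the groups compared. The tissue difference went from 0 to 2 and secondary disease against spleen doxycycline from 0 to 4 with the DESeq2 Wald test. Between the controls the 1 called became 2 with limma-voom, 0 with no filter and 13 with only the groups compared. Leaving out single libraries gave 0 to 9 members in bone marrow, 0 to 3 in spleen, 0 to 5 for the tissue difference, 0 to 1 between controls, 2 to 5 in secondary disease against control and 0 to 2 against spleen doxycycline. Fits without 1 library draw on fewer samples, and those without an uneven spleen doxycycline library or secondary disease replicate 4 called more members in several comparisons; what makes these libraries differ was not tested. Over all genes the same fits called 23 to 2428 in bone marrow (949 with all libraries) and 0 to 1364 in spleen (107). For the tissue difference they called 0 to 645 (7) and between controls 0 to 190 (27). In secondary disease they called 61 to 523 against control (293) and 0 to 1336 against spleen doxycycline (134). With the other settings included, the highest counts in the same order were 4929, 1364, 645, 1927, 756 and 1336 genes.

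Direction was checked on a chosen list of fold changes, not on all members in each comparison. On that list it turned in 5 cases, none of them called with all libraries. Other members may also have turned and were not counted. In spleen doxycycline Gp1bb was at -1.24 with limma-voom, and from -1.66 without spleen doxycycline replicate 1 to 1.16 without replicate 2 over the fits that left out a library. Treml1 was at -1.03 with limma-voom and from -0.54 to 1.39 without the same libraries. Ptgir in secondary disease against spleen doxycycline ran from 0.02 without spleen doxycycline replicate 1 to -5.78 without replicate 3.

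Replicate numbers are shared between groups. The deviations of same-numbered libraries had correlations of -0.339 to 0.174 over 30 pairs of any groups, and 5 pairs were over 0.1. Between bone marrow control and spleen control they were -0.108, 0.047 and 0.148 for replicates 1, 2 and 3. Between bone marrow doxycycline and spleen doxycycline they were -0.095, 0.041 and 0.084. Whether same-numbered libraries of the tissues came from the same mouse was not tested. With the replicate block, spleen doxycycline gave 3 members, and replicate 4, which is only in secondary disease, is fitted by its own term.

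Depth limits the low members: 11 of 34 could not be tested, and Itgb3, Gp9 and F5 rest on few counts.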
